A study of Homo sapiens with 6 samples.

Results

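The ERK pathway feedback genes described here are 10 transcriptional outputs and brakes of ERK signaling: the MAPK phosphatase genes DUSP4, DUSP5 and DUSP6, the Sprouty genes SPRY1, SPRY2 and SPRY4, their relatives SPRED1 and SPRED2, and the ETS transcription factor genes ETV4 and ETV5. The list was chosen with earlier results of these data known. Selection by gene symbol gave 23 RefSeq isoforms of the 51398 listed per library and 10 of 26334 gene symbols. All 10 had enough counts to be tested. RNA-seq was performed in PC-9, a human lung adenocarcinoma line driven by an activating EGFR deletion, carrying a scrambled control shRNA (shScr), shRBM10#1 or shRBM10#2. Each of the 3 conditions had 2 libraries, and all 6 came from untreated cells grown in medium with serum. The study asked how loss of RBM10, a splicing factor, changes the response of EGFR-mutant lung cancer to EGFR inhibitors, and in these untreated libraries the comparison is that of RBM10 knockdown (KD) with shScr. Each shRNA was tested in 1 cell line, and the labels do not say whether the libraries of a condition came from separate cultures, so the p-values measure the spread between these libraries, which may be technical.

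In cells driven by EGFR, the receptor activates RAS, RAF, MEK and then ERK, and ERK induces the genes that later switch it off. DUSP6 removes the activating phosphates from ERK in the cytoplasm, DUSP4 and DUSP5 act in the nucleus, Sprouty proteins interfere with signaling from receptors to RAS and RAF, and SPRED proteins recruit the RAS GTPase-activating protein neurofibromin. ETV4 and ETV5 are PEA3-type activators whose RNA, like that of DUSP6, SPRY2 and SPRY4, is held down by the repressor CIC until ERK inactivates it, and the RNA of these genes is widely used as a readout of ERK pathway output.

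Knockdown was graded. RBM10 (GRCh38 chromosome X, 47144869 to 47186813, plus strand) had a CPM (counts scaled to the TMM-adjusted library size) of 83.2 and 86.2 in shScr cells. It was 59.8 and 56.4 under shRBM10#1 and 27.2 and 26.9 under shRBM10#2. The log2 fold change (FC) was −0.54 (FDR = 0.000228) and −1.65 (FDR = 5.1e-08, edgeR). Depth was even, at 31953729 to 37557507 expected counts per library. The mean fragment length was 231.2 nt in shScr replicate 2 and 264.9 to 281.2 nt in the other 5 libraries. The summed level of 7 epithelial markers, led by the keratins KRT8, KRT18 and KRT19, was 23290.2 to 29497.42 TPM (a level scaled to transcript length and library). Of 9 immune, endothelial and fibroblast markers, 7 stayed under 1 TPM in all libraries, and the highest value of any was 10.9 TPM, for the endothelial cadherin CDH5.

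All 10 genes were expressed. By TPM, ETV4 and DUSP4 led in shScr cells with means of 112.12 (SD 8.25, n = 2) and 106.36 (SD 11.2, n = 2), followed by DUSP6 (50.31, SD 2.01), ETV5 (40.02, SD 6.05), SPRED2 (24.82, SD 1.08) and DUSP5 (23.88, SD 1.58). SPRY4 (10.5, SD 1.31), SPRED1 (9.16, SD 2.05), SPRY2 (8.17, SD 0.87) and SPRY1 (8.1, SD 1.28) were lowest. The ranges of the 2 libraries overlapped between ETV4 and DUSP4, between SPRED2 and DUSP5, and between each neighboring pair of the lowest 4, so the order of those neighbors is not resolved, although both SPRY4 values were above those of SPRY2 and SPRY1. Among the 17621 genes above 0 in shScr cells, the members lay between the 52.3 percentile (SPRY1) and the 92.6 percentile (ETV4). With either RBM10 shRNA the order of the top 4 was as in shScr. SPRY2 and SPRY1 stood above SPRY4 in both RBM10 KD conditions and below it in shScr. Summed over the 10 genes, the TPM was 368.2 and 418.7 in shScr, 419.4 and 421.5 under shRBM10#1, and 390.3 and 375.8 under shRBM10#2. Both shRBM10#1 sums were above the other 4, the nearest being shScr replicate 2, and the shRBM10#2 sums lay between those of shScr.

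**Figure D1:**
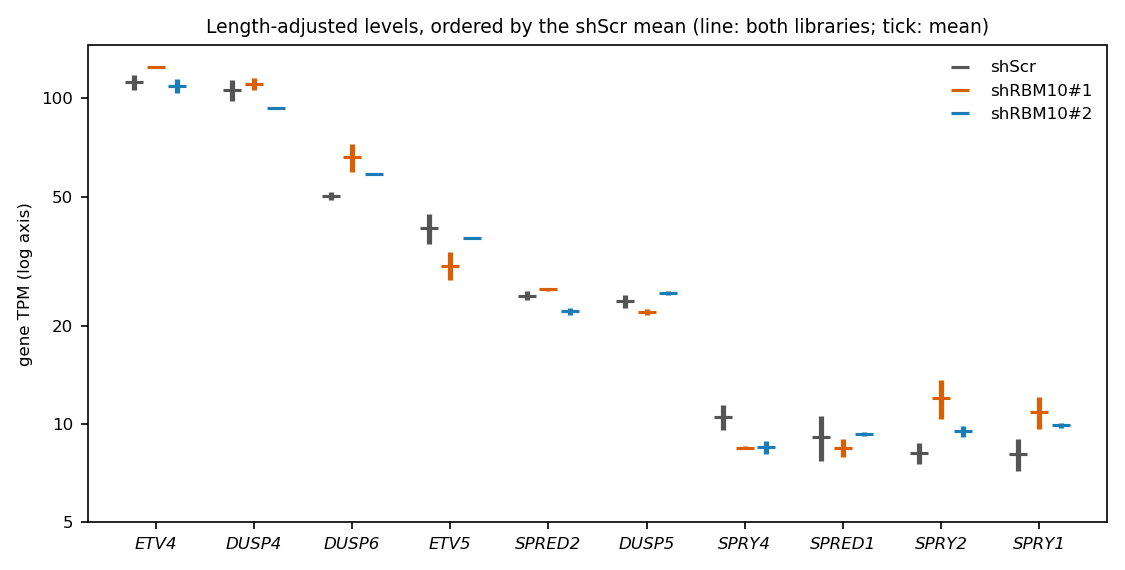
Gene TPM (log axis) of the 10 feedback genes in order of the shScr mean, with a line spanning the 2 libraries of each condition and a tick at their mean. ETV4 and DUSP4 lie near 100 TPM in every condition, the lowest 4 near 10 TPM, and the SPRY1 and SPRY2 ticks of both RBM10 shRNAs lie above those of shScr.

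Upon RBM10 KD the feedback genes did not move as a block. DUSP6 and SPRY1 rose with each shRNA, SPRY2 rose with shRBM10#1, SPRY4 fell with shRBM10#2, and ETV4 rose while ETV5 fell with shRBM10#1. With shRBM10#1, 5 of the 10 members passed an FDR of 0.05 (edgeR quasi-likelihood test, Benjamini-Hochberg over the 14217 genes tested), beside 14.0% of all genes tested. Of these, 4 were higher and 1 was lower, beside 7.13% and 6.91% of all genes. With shRBM10#2, 3 of 10 passed, beside 25.9% of all genes, with 2 higher (all genes 12.0%) and 1 lower (13.9%). The median log2 FC of the members was 0.16 with shRBM10#1 and 0.06 with shRBM10#2, beside 0.01 over all genes in each comparison, and the median absolute log2 FC was 0.23 and 0.13, beside 0.15 and 0.19. None reached an absolute log2 FC above 1. The study set this further criterion for isoforms, and it is applied to gene totals here. Together with the FDR it was met by 1.88% and 1.30% of all genes. The largest absolute log2 FC of a member was 0.66, for SPRY2 with shRBM10#1. Both comparisons share the shScr libraries, so they are not independent. In bulk RNA, a change in every cell and a change in some of the cells cannot be told apart.

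**Figure D2:**
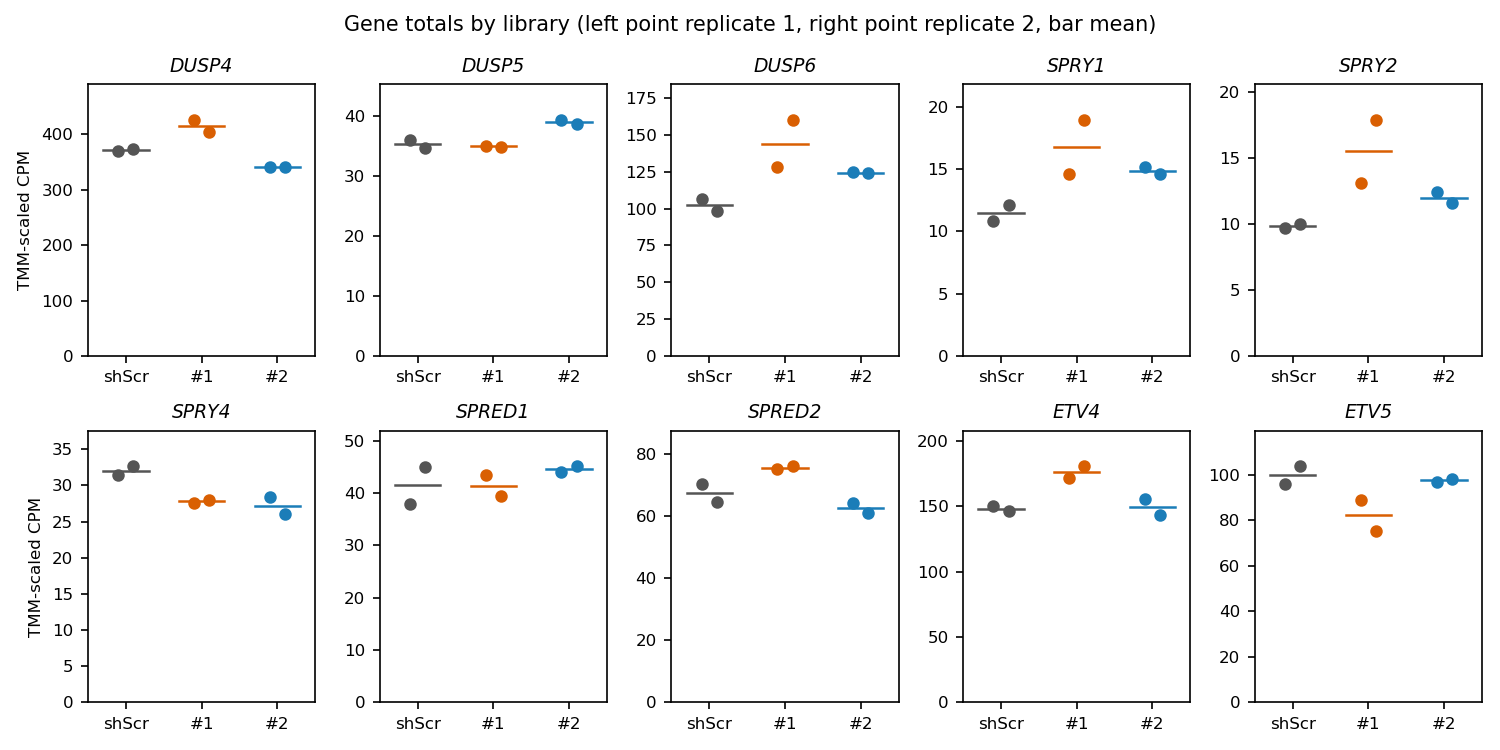
TMM-scaled CPM of each feedback gene in each of the 6 libraries, with the left and right point for replicate 1 and 2 and a bar at the mean of each condition. All 4 RBM10 KD libraries lie above both shScr libraries for DUSP6, SPRY1 and SPRY2 and below both for SPRY4, and the other 6 genes overlap.

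DUSP6 encodes the cytoplasmic ERK phosphatase and lies on GRCh38 chromosome 12, 89347232 to 89353271, minus strand. Its CPM was 107 and 98.6 in shScr, 128 and 160.2 with shRBM10#1, and 125 and 124 with shRBM10#2. Both RBM10 shRNAs therefore gave values above both controls, and shRBM10#1 replicate 2 stood above the other 3 KD libraries. The increase was 1.40-fold with shRBM10#1 (log2 FC 0.49, SE 0.0909, FDR = 0.00336, edgeR) and 1.21-fold with shRBM10#2 (log2 FC 0.28, SE 0.0909, FDR = 0.0405, edgeR). Without shRBM10#1 replicate 2, the first value was 0.32 (FDR = 0.0148, edgeR). Without shScr replicate 2 it was 0.43 (FDR = 0.0525, edgeR), and the shRBM10#2 value was lost without either shScr or either shRBM10#2 library (FDR 0.0784 to 0.214, edgeR) and with the effective length offset (FDR = 0.0566, edgeR), a correction for fragment length.

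The promoter of DUSP6 is shown because CIC, the repressor of several of these genes, binds a known octamer and its own RNA differed between conditions (described with the pathway genes). In the RefSeq promoter windows (250 bases before to 50 after the start site, GRCh38.p14), the octamer in the forms TGAATGAA, TGAATGGA, TCAATGAA and TCAATGGA was searched on both strands. A match was present in 3.77% of all 35116 windows and at 2 places in 0.327%. There were 10 windows of 6 members (DUSP6, SPRY1, SPRY2, SPRY4, SPRED1 and SPRED2). Of these, 1 had matches, that of DUSP6, at 2 places. The start site of this window lies within the gene span of DUSP6 given above (89347232 to 89353271). Both matches, in capitals within the strand of the gene, read TCAATGGA on the opposite strand, the first 24 to 17 bases before the start site and the second from base 2 to base 9 of the transcript:
DUSP6 upstream match, chr12:89352510-89352533, minus strand: agaatgtaTCCATTGAgacgctcg
DUSP6 match in the transcript, chr12:89352485-89352508, minus strand: tgtttgtaTCCATTGAggagctgc
The AP-1 motif TGANTCA, which reads alike on both strands, was found in 7.71% of all windows and at 2 places in 0.515%. Of the 10 member windows, 1 had matches, a SPRED2 window with 2 places, shown for comparison:
SPRED2 match at the start site, chr2:65366770-65366792, minus strand: ccctcggaTGACTCAtccggtac
SPRED2 match in the transcript, chr2:65366730-65366752, minus strand: aaggagacTGAATCAtatatggg
The cyclic AMP response element TGACGTCA (1.85% of all windows) and the ETS motif CCGGAAGT (4.14%) had no match in the member windows. The start site of the SPRED2 window lies within the gene span (65310851 to 65432637, minus strand), not at its beginning at 65432637. A match describes letters in these windows only, and binding was not measured.

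SPRY1 (chromosome 4, 123396795 to 123403760, plus strand) and SPRY2 (chromosome 13, 80335976 to 80340951, minus strand) encode the Sprouty inhibitors of receptor signaling, and their patterns resembled that of DUSP6. SPRY1 had a CPM of 10.9 and 12.1 in shScr, 14.6 and 19.0 with shRBM10#1, and 15.2 and 14.6 with shRBM10#2. SPRY2 had 9.73 and 10.0 in shScr, 13.1 and 17.9 with shRBM10#1, and 12.4 and 11.6 with shRBM10#2. In both genes every KD library was above both controls and shRBM10#1 replicate 2 was highest. SPRY1 rose 1.47-fold with shRBM10#1 (log2 FC 0.55, SE 0.123, FDR = 0.0101, edgeR) and 1.30-fold with shRBM10#2 (log2 FC 0.37, SE 0.123, FDR = 0.0413, edgeR). SPRY2 rose 1.58-fold with shRBM10#1 (log2 FC 0.66, SE 0.134, FDR = 0.00593, edgeR), and with shRBM10#2 its log2 FC was 0.28 (95% interval −0.01 to 0.57, FDR = 0.151, edgeR), which did not pass. These calls rested on few libraries. Without shRBM10#1 replicate 2 the shRBM10#1 value was 0.35 for SPRY1 (FDR = 0.0843, edgeR) and 0.41 for SPRY2 (FDR = 0.0466, edgeR). Without shScr replicate 1 the shRBM10#1 call was lost for SPRY1 (FDR = 0.0817) and SPRY2 (FDR = 0.0517), and without shScr replicate 2 for SPRY2 (FDR = 0.0503, edgeR). The SPRY1 call with shRBM10#2 was lost without any 1 of the shScr or shRBM10#2 libraries (FDR 0.0756 to 0.219, edgeR), with DESeq2 (FDR = 0.0617) and with the effective length offset (FDR = 0.063, edgeR).

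SPRY4, the third Sprouty gene (chromosome 5, 142310427 to 142326455, minus strand), went the other way. Its CPM was 31.5 and 32.6 in shScr, 27.5 and 28.0 with shRBM10#1, and 28.4 and 26.0 with shRBM10#2. All 4 KD libraries were below both controls, at nearly the same level with either shRNA. SPRY4 fell to 0.848 of the control with shRBM10#2 (log2 FC −0.24, SE 0.0766, FDR = 0.0376, edgeR), and with shRBM10#1 the log2 FC was −0.21 (95% interval −0.37 to −0.04, FDR = 0.0972, edgeR). The shRBM10#2 call was lost without any 1 of the shScr or shRBM10#2 libraries (FDR 0.0749 to 0.347, edgeR), with DESeq2 (FDR = 0.0785) and with the replicate block (FDR = 0.0585, edgeR).

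Across the 6 libraries, all 4 RBM10 KD values were above both shScr values for 3 of 10 members (DUSP6, SPRY1 and SPRY2), beside 14.9% of all genes tested, and below both for 1 of 10 (SPRY4), beside 14.5%.

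DUSP4 and SPRED2 passed the threshold between the shRNAs but not relative to shScr. DUSP4, the nuclear phosphatase on chromosome 8 and the member with the most counts, had a CPM of 370.0 and 373 in shScr, 426 and 405 with shRBM10#1, and 341 and 341 with shRBM10#2. Both shRBM10#1 values were above and both shRBM10#2 values below the controls. The share of all genes that separate in this way was not computed. Relative to shScr the log2 FC was 0.16 with shRBM10#1 (95% interval 0.03 to 0.29, FDR = 0.104, edgeR) and −0.12 with shRBM10#2 (−0.26 to 0.01, FDR = 0.166, edgeR). Directly compared, DUSP4 was lower with shRBM10#2 than with shRBM10#1 (log2 FC −0.28, SE 0.0616, FDR = 0.00581, edgeR).

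SPRED2 (chromosome 2, 65310851 to 65432637, minus strand) followed the same order, with a CPM of 70.3 and 64.7 in shScr, 75.1 and 76.1 with shRBM10#1, and 64.3 and 61.2 with shRBM10#2. Neither shRNA differed from shScr past the threshold (log2 FC 0.16, 95% interval 0.01 to 0.31, FDR = 0.138, and −0.11, 95% interval −0.26 to 0.05, FDR = 0.291, edgeR). Between the shRNAs the log2 FC was −0.27 (SE 0.0689, FDR = 0.0132, edgeR). The difference between shRNAs was lost without either shRBM10#2 library for DUSP4 (FDR = 0.091 and 0.105) and for SPRED2 (FDR = 0.0791 and 0.19, edgeR).

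DUSP5 and SPRED1 passed no test. DUSP5, an ERK phosphatase of the nucleus (chromosome 10, 110497838 to 110511544, plus strand), had a CPM of 36.0 and 34.7 in shScr, 35.0 and 34.8 with shRBM10#1, and 39.3 and 38.6 with shRBM10#2. Its log2 FC was −0.02 with shRBM10#1 (95% interval −0.17 to 0.13, FDR = 0.898, edgeR) and 0.14 with shRBM10#2 (−0.01 to 0.29, FDR = 0.158, edgeR). SPRED1 (chromosome 15, 38252326 to 38357249, plus strand), the gene altered in Legius syndrome, had 37.8 and 45.0 in shScr, 43.4 and 39.4 with shRBM10#1, and 43.9 and 45.1 with shRBM10#2. Its shScr libraries spanned most of this range, and the log2 FC was −0.00 with shRBM10#1 (95% interval −0.20 to 0.19) and 0.10 with shRBM10#2 (−0.09 to 0.29).

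The 2 PEA3 factors moved in opposite directions with shRBM10#1. ETV4 (chromosome 17, 43527844 to 43579620, minus strand) had a CPM of 150.2 and 146 in shScr, 172 and 180.4 with shRBM10#1, and 155 and 143 with shRBM10#2. ETV5 (chromosome 3, 186046308 to 186110318, minus strand) had 96.1 and 104 in shScr, 89.0 and 75.5 with shRBM10#1, and 97.0 and 98.0 with shRBM10#2. The shRBM10#1 values lay apart from both controls in each gene, whereas the shRBM10#2 values overlapped them. For this separation too, the share of all genes was not computed. ETV4 rose 1.19-fold (log2 FC 0.25, SE 0.0657, FDR = 0.0243, edgeR) and ETV5 fell to 0.823 of the control (log2 FC −0.28, SE 0.0801, FDR = 0.0337, edgeR) with shRBM10#1. With shRBM10#2 the log2 FC was 0.01 for ETV4 (95% interval −0.13 to 0.15) and −0.04 for ETV5 (−0.21 to 0.14). The direct difference between shRNAs was −0.24 for ETV4 (SE 0.0656, FDR = 0.0193, edgeR) and 0.25 for ETV5 (SE 0.0799, FDR = 0.0388, edgeR). Each of the shRBM10#1 calls was lost in 5 of the 6 fits that left out 1 library (FDR 0.0617 to 0.122 for ETV4 and 0.0561 to 0.207 for ETV5, edgeR), that without shRBM10#1 replicate 1 being the exception. Without shRBM10#1 replicate 2 the ETV5 value was −0.17 (FDR = 0.197) relative to shScr and 0.13 (FDR = 0.217, edgeR) between shRNAs, where that of ETV4 was −0.20 (FDR = 0.0548, edgeR). Leaving out shRBM10#2 replicate 1 or 2 also ended the difference between shRNAs for ETV4 (FDR = 0.0749 and 0.293) and ETV5 (FDR = 0.173 and 0.194, edgeR), and that of ETV5 was also lost with the effective length offset (FDR = 0.0562) and the replicate block (FDR = 0.0501, edgeR).

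In all, 5 of 10 members differed between shRBM10#2 and shRBM10#1, beside 25.5% of all genes, with ETV5 higher (all genes 11.0%) and DUSP4, SPRED2, ETV4 and SPRY2 lower (14.5%) with shRBM10#2. SPRY2 was the nearest to the threshold (log2 FC −0.38, SE 0.130, FDR = 0.0494, edgeR). It was −0.13 without shRBM10#1 replicate 2 (FDR = 0.429), −0.58 without shRBM10#1 replicate 1 (FDR = 0.00277), and lost without any 1 of the other 4 libraries (FDR 0.0691 to 0.276, edgeR). With DESeq2 (FDR = 0.0741), the 10-count minimum (FDR = 0.0531), the effective length offset (FDR = 0.0637) and the replicate block (FDR = 0.0516, edgeR) it did not pass either. DUSP6 had a log2 FC of −0.21 between the shRNAs (95% interval −0.41 to −0.02, FDR = 0.101, edgeR) and SPRY1 −0.18 (−0.44 to 0.08, FDR = 0.295, edgeR). Thus 4 of the 5 differences were lower values with shRBM10#2, the shRNA with the lower RBM10 level. No member met the further fold criterion here, which 1.19% of all genes did.

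**Figure D3:**
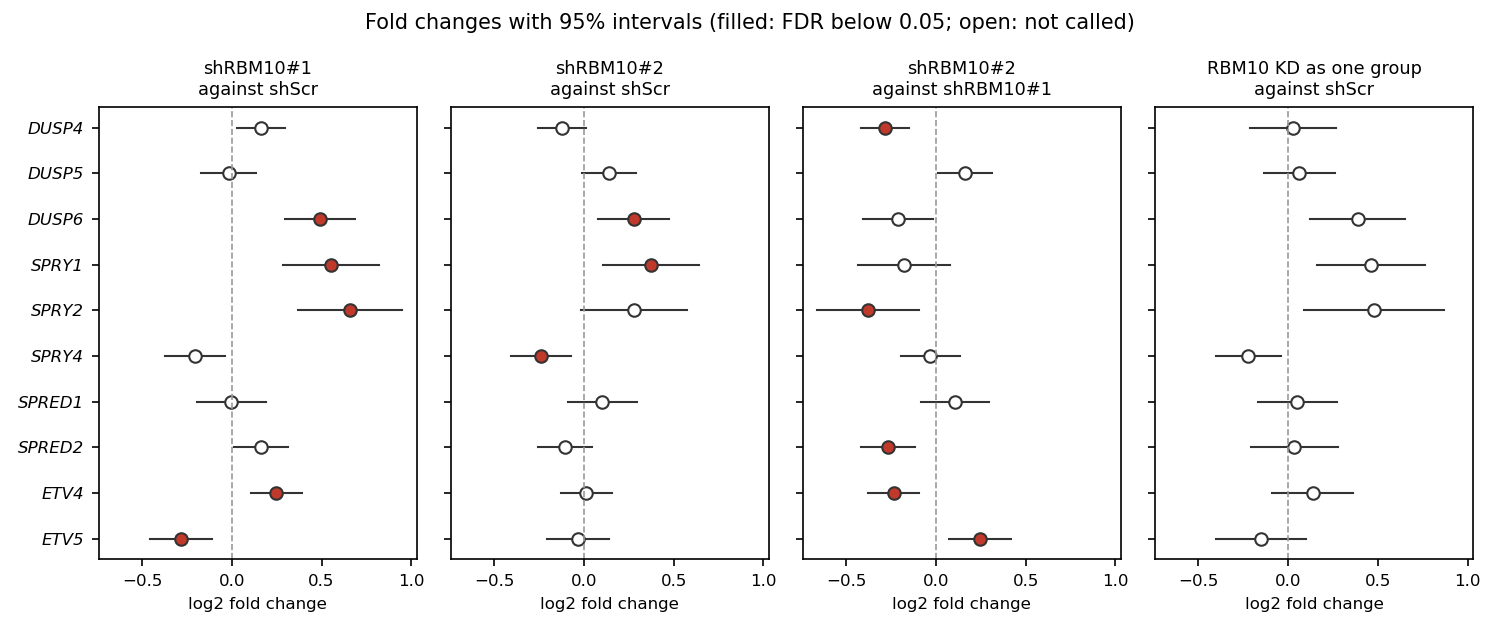
The log2 fold change of each feedback gene with its 95% interval in 4 comparisons, filled where the FDR was below 0.05 (edgeR quasi-likelihood test). DUSP6, SPRY1 and SPRY2 lie right of 0 and SPRY4 left of 0 with either shRNA, DUSP4, SPRED2, ETV4, ETV5 and SPRY2 are filled between the shRNAs, and no member is filled with the 4 KD libraries as 1 group.

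With the 4 RBM10 KD libraries taken as 1 group, 0 of 10 members passed (edgeR quasi-likelihood test), beside 1.62% of all genes (0.542% higher, 1.08% lower, and 0.394% with the fold criterion). At an unadjusted p under 0.05 there were 4 members by the same test, beside 17.2% of all genes, and DESeq2 called 1, DUSP6 (FDR = 0.0482), beside 5.05% of all genes. The log2 FC was 0.46 for SPRY1 (95% interval 0.16 to 0.76, FDR = 0.128, edgeR), 0.39 for DUSP6 (0.12 to 0.65, FDR = 0.141, edgeR), 0.48 for SPRY2 (0.09 to 0.87, FDR = 0.207, edgeR) and −0.22 for SPRY4 (−0.40 to −0.04, FDR = 0.206, edgeR). RBM10 itself did not pass in this fit (log2 FC −0.99, FDR = 0.146, edgeR), in which the gap between the 2 shRNAs counts as spread. With a coefficient for each condition and the mean of both shRNAs tested against shScr, DUSP6, SPRY1, SPRY2 and SPRY4 passed (FDR 0.00594 to 0.0348, edgeR), which was 4 of 10 members beside 18.4% of all genes.

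Because RBM10 is a splicing factor, the isoforms of the members were examined as well. DUSP5, SPRY2, SPRED1 and ETV5 had a single listed isoform. In DUSP4, DUSP6, SPRED2 and SPRY4 a single isoform made up most of the gene in every library: NM_001394 with 99.66% to 99.85% of DUSP4, NM_001946 with 96.1% to 99.16% of DUSP6, NM_181784 with 89.52% to 98.43% of SPRED2, and NM_001127496 with 88.4% to 94.23% of SPRY4. SPRY1 was divided between NM_001258039 (48.79% to 66.45%) and NM_001258038 (18.8% to 39.13%), with its lowest NM_001258038 share in shScr replicate 1.

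ETV4 was the most divided member, with 5 isoforms. NM_001986 made up 35.43% and 14.79% in shScr cells, 40.18% and 34.38% under shRBM10#1, and 30.89% and 30.82% under shRBM10#2, while NM_001261438 made up 20.2% and 31.04%, 12.98% and 17.38%, and 16.28% and 14.68%. The library that stood apart in both isoforms was shScr replicate 2, the one with the shortest fragments, and the part of fragment length in the ETV4 shares was not tested. NM_001079675 stayed between 34.72% and 40.95% in all libraries. The minor isoform NM_001261439 made up 1.67% and 3.0% in shScr, 3.74% and 3.99% with shRBM10#1, and 6.81% and 4.9% with shRBM10#2. Every KD library was above both controls in this share and below both in that of NM_001261438. How often isoform shares separate in this way over all genes was not computed.

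**Figure D4:**
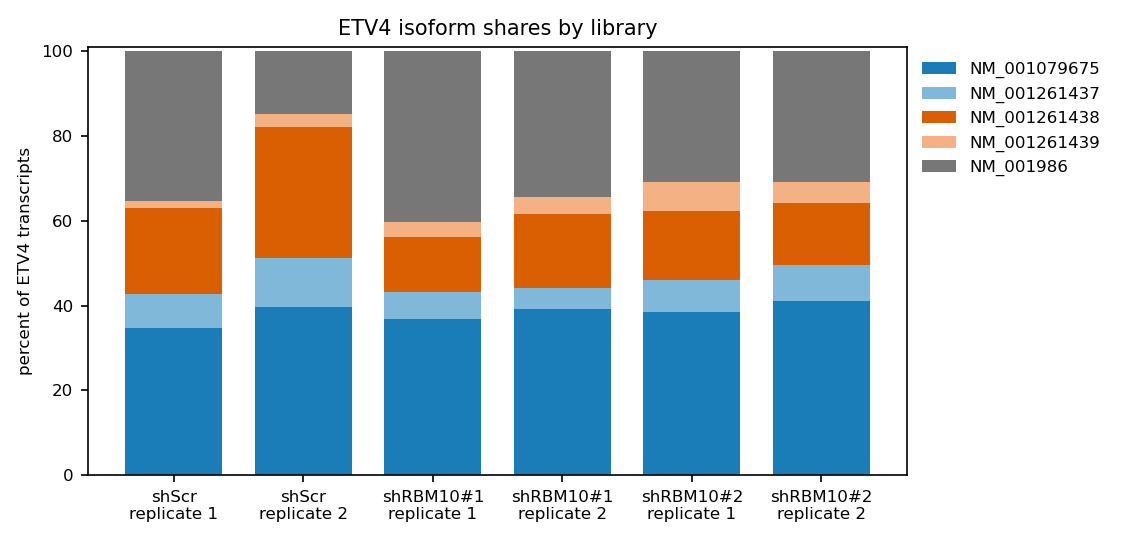
Percent of ETV4 transcripts from each of its 5 isoforms in each library, stacked to 100%. The NM_001986 share is 14.79% in shScr replicate 2 and 30.82% to 40.18% in the other 5 libraries.

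None of the 21 member isoforms with enough counts passed an FDR of 0.05 in any comparison (edgeR quasi-likelihood test over 26464 isoforms), beside 0.0302% of all isoforms with shRBM10#1, 2.26% with shRBM10#2, 2.25% between the shRNAs and 0% with KD as 1 group. At an unadjusted p under 0.05 there were 8, 4, 4 and 4 of them by edgeR, beside 14.5%, 21.5%, 20.3% and 10.9% of all isoforms. DESeq2 called 5 (of DUSP4, DUSP6, ETV4, ETV5 and SPRY2), 4 (1 each of DUSP4 and SPRY4 and 2 of ETV4), 2 (of DUSP4 and SPRED2) and 0, beside 9.13%, 17.2%, 16.0% and 3.09% of all isoforms. Closest to the threshold in edgeR was NM_001394 of DUSP4 between the shRNAs (log2 FC −0.28, SE 0.0457, FDR = 0.0522), which passed when at least 10 counts were required in every library, beside 6.69% of all isoforms. Isoform usage, the share of a gene's counts per isoform, was tested in the 6 members with at least 2 isoforms left. No change was called (edgeR diffSpliceDGE, smallest FDR 0.809, none at an unadjusted p under 0.05), beside 0.172%, 2.75%, 1.92% and 0.515% of the 6405 genes tested in the 4 comparisons, and limma diffSplice called none either, with 1, 3, 1 and 1 members at an unadjusted p under 0.05, beside 14.9%, 25.3%, 21.2% and 14.1% of all genes. Without shScr replicate 1, which left shScr replicate 2 as the only control, ETV4 usage was called with shRBM10#1 (FDR = 0.00376), shRBM10#2 (FDR = 0.0102) and KD as 1 group (FDR = 0.0387, edgeR), beside 0.583%, 1.60% and 0.642% of all genes. Without shScr replicate 2 it was not called.

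The counts of other pathway genes stand beside 7.13% of all genes higher and 6.91% lower with shRBM10#1, and 12.0% higher and 13.9% lower with shRBM10#2. Of 15 other ERK-responsive genes, 0 rose and 4 fell with shRBM10#1 and 1 rose and 7 fell with shRBM10#2, with a median log2 FC of −0.08 and −0.18 beside 0.01 over all genes. HBEGF, a ligand of EGFR that is itself induced by ERK, fell most: its CPM was 21.5 and 17.6 in shScr, 4.16 and 3.56 with shRBM10#1, and 7.46 and 9.16 with shRBM10#2 (log2 FC −2.35, FDR = 2.07e-06, and −1.24, FDR = 0.000125, edgeR). All 4 KD libraries were below both controls, and HBEGF was lower with shRBM10#1 than with shRBM10#2 (log2 FC of shRBM10#2 against shRBM10#1 1.11, FDR = 0.000518, edgeR). The AP-1 subunit gene FOSL1 (log2 FC −0.71, FDR = 0.000266, and −0.51, FDR = 0.00176, edgeR) and the cytokine gene LIF (−0.63, FDR = 0.000361, and −0.56, FDR = 0.000699, edgeR) also fell with each shRNA. The receptor gene EPHA2 fell with shRBM10#2 (−0.66, FDR = 0.000314, edgeR), and with shRBM10#1 its log2 FC was −0.26 (FDR = 0.0551, edgeR). Each of these calls relative to shScr (HBEGF, FOSL1 and LIF with either shRNA and EPHA2 with shRBM10#2) held in all 12 other fits.

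Of 11 other MAPK phosphatase, Sprouty, SPRED and PEA3 genes, 1 fell with each shRNA, DUSP1, and none rose. DUSP1, an immediate-early phosphatase with preference for p38 and JNK, had a CPM of 6.31 and 5.59 in shScr, 3.77 and 3.04 with shRBM10#1, and 3.74 and 3.65 with shRBM10#2 (log2 FC −0.81, FDR = 0.00551, and −0.69, FDR = 0.00842, edgeR). The shRBM10#2 value was lost without shScr replicate 1 (FDR = 0.0631) or either shRBM10#2 library (FDR = 0.06 and 0.0806, edgeR).

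The cascade from EGFR to ERK itself (18 genes) had 0 genes higher and 3 lower with shRBM10#1 and 4 higher and 6 lower with shRBM10#2, in all 3 and 10 of 18 beside 14.0% and 25.9% of all genes. With shRBM10#2, the RAS gene HRAS (log2 FC −0.46, FDR = 0.00224), the adaptor gene SHC1 (−0.32, FDR = 0.00359) and the scaffold gene KSR1 (−0.74, FDR = 0.00515, edgeR) were lower. The values of SHC1 and KSR1 did not pass without shRBM10#2 replicate 1 (FDR = 0.0943 and 0.0615, edgeR). The counts with shRBM10#2 were 0 higher and 1 lower without shRBM10#2 replicate 1, 0 and 3 without shRBM10#2 replicate 2, 0 and 5 without shScr replicate 1, and 2 and 3 without shScr replicate 2. With shRBM10#1, 1 gene was lower without shRBM10#1 replicate 2 or either shRBM10#2 library and 0 without shScr replicate 2. Between the shRNAs the RAF gene ARAF was lower with shRBM10#2 (−0.38, FDR = 0.00224, edgeR, and 0.0531 without shRBM10#2 replicate 1). Among 9 other negative regulators, 0 rose and 3 fell with shRBM10#1, including the RAS GTPase-activating protein gene RASAL2 (−0.45, FDR = 0.00265) and the ubiquitin ligase gene CBL (−0.34, FDR = 0.0189, edgeR). With shRBM10#2, 1 rose, PEBP1, the RAF kinase inhibitor gene (0.29, FDR = 0.00936, edgeR), and 2 fell. LZTR1, a RAS-degrading ligase adaptor gene, was lower with shRBM10#2 than with shRBM10#1 (−0.37, FDR = 0.0189, edgeR). It was −0.20 (FDR = 0.139) without shRBM10#1 replicate 1 and was also lost without shRBM10#2 replicate 1 (FDR = 0.165) or replicate 2 (FDR = 0.071, edgeR). CBL was not called without shRBM10#1 replicate 2 (−0.23, FDR = 0.132) or shScr replicate 2 (FDR = 0.122), and PEBP1 not without shScr replicate 2 (FDR = 0.0555) or either shRBM10#2 library (FDR = 0.0995 and 0.0924, edgeR). Of this list, 1 gene was lower with shRBM10#1 without shRBM10#1 replicate 2 or shScr replicate 2, 2 without any of the other libraries apart from shRBM10#1 replicate 1, and none passed with shRBM10#2 without either shRBM10#2 library or shScr replicate 2.

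CIC and its partner ATXN1L were lower with shRBM10#2. CIC had a CPM of 72.8 and 77.1 in shScr, 72.3 and 68.2 with shRBM10#1, and 50.7 and 45.7 with shRBM10#2. The shRBM10#2 libraries lay below the other 4, with a log2 FC of −0.64 relative to shScr (FDR = 0.000222, edgeR) and −0.54 relative to shRBM10#1 (FDR = 0.000498, edgeR), while shRBM10#1 had −0.09 relative to shScr (FDR = 0.446, edgeR). ATXN1L had −0.30 with shRBM10#2 (FDR = 0.00624, edgeR), which was lost without either shRBM10#2 library (FDR = 0.0597 and 0.118, edgeR). The third gene of this list, ATXN1, did not pass (−0.10, FDR = 0.35, edgeR). With shRBM10#2, DUSP6 (log2 FC 0.28), SPRY1 (0.37) and SPRY4 (−0.24) passed, which was 3 of 10 members beside 25.9% of all genes. SPRY2 (0.28), DUSP5 (0.14), SPRED1 (0.10), ETV4 (0.01), ETV5 (−0.04), SPRED2 (−0.105) and DUSP4 (−0.12) did not. The part of CIC in these values was not tested.

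**Figure D5:**
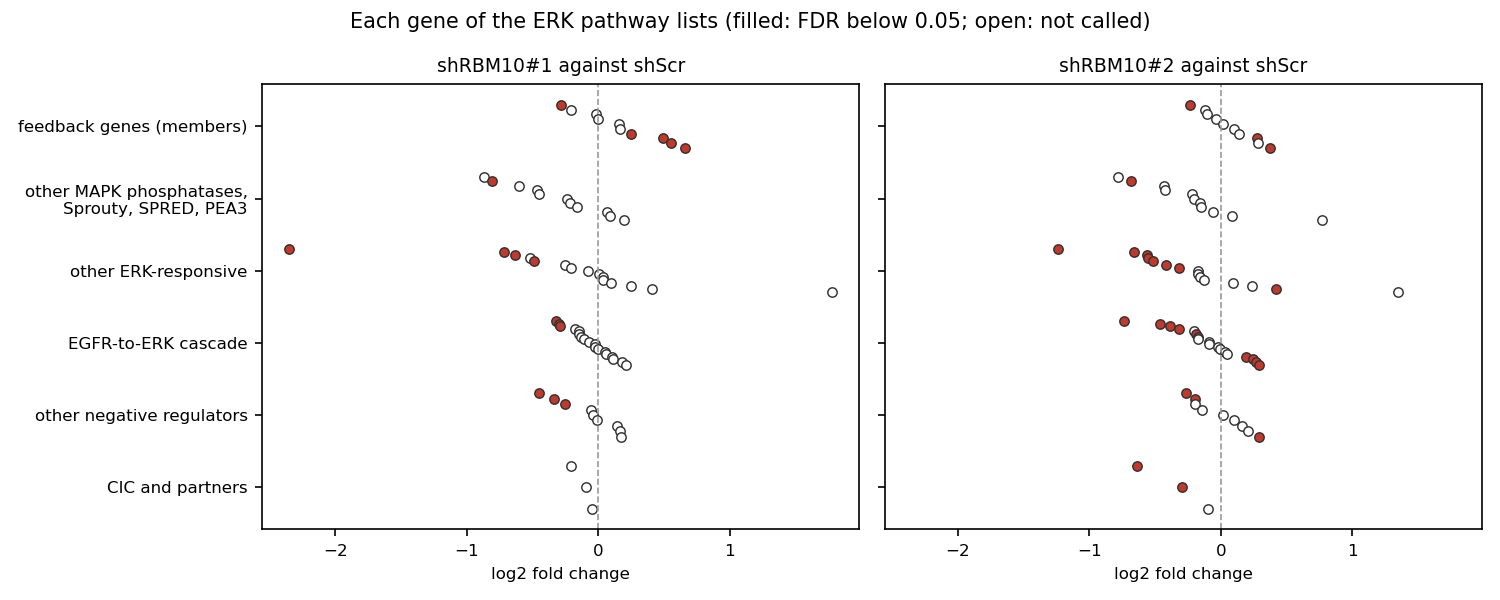
The log2 fold change of every gene of the ERK pathway lists with shRBM10#1 (left) and shRBM10#2 (right) relative to the same shScr libraries, filled where the FDR was below 0.05. HBEGF is the far left point of the other ERK-responsive genes at −2.35 and −1.24, and the far right open point of that list, EGR2, did not pass in either comparison.

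Markers moved beside these genes. With shRBM10#1, the endothelial genes CDH5 (log2 FC 0.95, FDR = 0.000411) and PECAM1 (0.54, FDR = 0.0459, edgeR) were higher, PECAM1 in 3 of the 12 other fits only, and the 9 non-epithelial markers summed to 10.59 to 12.94 TPM, against 6.66 to 7.76 TPM in shScr and 8.02 to 8.25 TPM under shRBM10#2. CDH5 was highest in shRBM10#1 replicate 2 (30.0 CPM, beside 22.4 in replicate 1 and 12.6 to 16.0 in the other libraries), as were DUSP6, SPRY1 and SPRY2. PTPRC was at 0.05 TPM or lower in every library, and DCN and LUM were at 0 in 5 of 6. The 7 epithelial markers summed to 26064.1 to 27808.73 TPM in shScr, 27040.3 to 29497.42 under shRBM10#1 and 23290.2 to 24162.32 under shRBM10#2. Of these, KRT19 was higher with shRBM10#1 (log2 FC 0.28, FDR = 0.012, edgeR, and 0.0784 without shScr replicate 2) and lower with shRBM10#2 (−0.28, FDR = 0.00842, edgeR), while EPCAM was higher with shRBM10#2 (0.24, FDR = 0.018, edgeR). KRT7 (−0.29, FDR = 0.0126) and KRT8 (−0.24, FDR = 0.0265, edgeR) were lower with shRBM10#2 than with shRBM10#1. The KRT19, EPCAM, KRT7 and KRT8 values were lost in 3, 3, 3 and 4 of the 12 other fits, KRT19 being that with shRBM10#2, each time including those without either shRBM10#2 library. Their part in the results was not tested.

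Over the 6 libraries, which share 3 conditions, the members fell into like and unlike patterns. The Pearson r of log2 CPM was 0.97 between DUSP6 and SPRY2, 0.96 between SPRY1 and SPRY2, 0.94 between DUSP6 and SPRY1 and 0.91 between DUSP4 and SPRED2. It was −0.91 between ETV4 and ETV5 and −0.92 between SPRY2 and ETV5. Among all 14217 genes, those most like DUSP6 were IDH1 (r = 0.997), QARS (0.997) and HILPDA (0.996), those most like SPRY2 were CAB39L (0.997), FAM104A (0.995) and STMN3 (0.995), and those most like DUSP4 were MYO1C (0.996), PIK3R2 (0.995) and DNAJA3 (0.994). Of the 14217 genes, 151, 154 and 236 had an r over 0.95 with DUSP6, SPRY2 and DUSP4.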

How the data were processed

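Isoform tables of 6 PC-9 libraries were analyzed (shScr, shRBM10#1 and shRBM10#2, 2 libraries each, grouped by the labels). The study's methods name parental cells as the control, whereas the labels name shScr, which is used here. The authors quantified RefSeq isoforms with RSEM, and the submitters' processing notes list STAR 2.4, RSEM 1.2.29, edgeR and hg19. Strandedness is not given in the sources used here. The deposited expected counts split shared reads among isoforms and need not be whole. The deposited TPM are scaled to effective length, and the authors' percent column gives each isoform's share of its gene. Deposited FPKM were not used.

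Expected counts were summed per gene symbol, rounded and tested with edgeR 4.0.16 (R 4.3.3, TMM scaling, filterByExpr, glmQLFit, glmQLFTest, Benjamini-Hochberg adjustment, called at an FDR below 0.05) with 1 coefficient per condition over all 6 libraries, and a second fit with the 4 KD libraries as 1 group. The SE is the log2 FC divided by the root of the F statistic, and intervals are 95%. Isoforms were tested alike, and usage with diffSpliceDGE. DESeq2 1.42.0, limma 3.58.1, other scalings and filters, an effective length offset, a replicate block and leaving out each library were alternatives. CPM are TMM-scaled, and member counts ranged from 316 to 14902 per library. Scripts were tested on simulated data. Replicates differed beyond sampling noise (chi-square per degree of freedom of gene counts 9.37, 11.9 and 3.16). Deviations of same-numbered libraries from their condition means did not correlate (r = −0.00383, −0.0193 and −0.0136), so no shared deviation was seen. This cannot tell whether same-numbered libraries were prepared together, which the labels do not say.

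Coordinates are from GENCODE 29 (GRCh38), and promoters from RefSeq (GRCh38.p14). The members, the gene lists and the motifs were chosen with earlier results of these data known. The genes named were all 10 members and RBM10, up to 4 called genes per list by smallest FDR, and the 3 genes most correlated with each of the 3 members of smallest FDR. EGR2, ATXN1, PTPRC, DCN, LUM and KRT18 are named outside this rule, after their values were seen.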

Additional observations from a re-analysis of the deposited data

Results flagged for a closer look

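Among the 4 RBM10 KD libraries, the value of shRBM10#1 replicate 2 stood apart for 2 of the 10 members. Its gap to the next library was 0.89 of the whole range for DUSP6 and 0.869 for SPRY1, above Dixon's 95% critical value for 4 samples. Chance exceeds that value in about 1 of 20 groups drawn from a single population. These 4 libraries came from 2 shRNAs, so that rate need not hold here. The 2 genes also varied together (r = 0.94 over the 6 libraries), so the 2 flags are not separate events.

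The effects of the 2 shRNAs differed for 5 members by the direct test of shRBM10#2 against shRBM10#1 (edgeR, FDR below 0.05): the log2 FC was −0.28 for DUSP4, −0.24 for ETV4, 0.25 for ETV5, −0.27 for SPRED2 and −0.38 for SPRY2. All 5 had an absolute log2 FC under 1, and the share of all genes that differed between the shRNAs was 25.5%.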

How the results depend on the processing

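Of 490 recomputed fold changes of single members, 427 kept their direction and side of the threshold or were not called in either fit, 53 lost and 10 gained a call, and 0 called values changed sign. With the replicate block, as the check of pairing found no shared deviations, the number of members called was 5 with shRBM10#1, 2 with shRBM10#2, 3 between the shRNAs (ETV5 FDR = 0.0501 and SPRY2 FDR = 0.0516 lost, edgeR) and 0 with KD as 1 group. With shRBM10#2, DESeq2 called 1 member and the effective length offset 1, and between the shRNAs that offset gave 3. With the study's fold criterion, set there for isoforms, 0 members were called with shRBM10#1, shRBM10#2 or between the shRNAs. With KD as 1 group, DESeq2 called 1 and the coefficient for each condition 4. Leaving out 1 library gave 1 to 5 members with shRBM10#1, 0 to 4 with shRBM10#2, 0 to 7 between the shRNAs and 0 with KD as 1 group. A lone library left in a condition is assumed to vary like the others. Of member isoforms, DESeq2 called 5, 4 and 2 (shRBM10#1, shRBM10#2 and between the shRNAs), and a minimum of 10 counts in every library 1 between the shRNAs. For isoforms, leaving out a library gave 0 to 0 calls, and for usage 0 to 1 with shRBM10#1, shRBM10#2 or KD as 1 group (leave-one-out of isoforms and usage was added after seeing the data). The causes were not tested.

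Over all genes, the 3685 calls with shRBM10#2 fell to 954 to 2390 without a shScr or shRBM10#2 library, the 1996 with shRBM10#1 to 985 to 1376 without any library other than shRBM10#1 replicate 1. The 3628 between the shRNAs fell to 918 and 1157 without a shRBM10#2 library. The 230 with KD as 1 group were 718 with DESeq2, 52 with the replicate block, 2610 with a coefficient for each condition, and 0 to 413 without 1 library. Of all isoforms, DESeq2 called 2416, 4560, 4231 and 819 and the 10-count minimum 380, 1647, 1403 and 18 in the 4 comparisons, against 8, 597, 595 and 0, the block 0 in each, and leaving out 1 library 0 to 1, 0 to 151, 0 to 2 and 0 to 2. Of genes with changed usage, limma called 42, 571, 339 and 41, the 5% minimum 31, 146, 89 and 31, and the block 4, 83, 48 and 13, and leaving out 1 library 5 to 39, 34 to 151, 27 to 114 and 11 to 43, against 11, 176, 123 and 33.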
